A study of Mus musculus with 6 samples.

Results

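Oxidative phosphorylation is carried out by 5 protein complexes of the inner mitochondrial membrane, and its genes sit in both genomes of the cell. The genes described here are those in the mouse annotation whose symbols begin with Nduf, Uqcr, Cox4 to Cox8 or Atp5, the 4 succinate dehydrogenase genes, and the protein-coding genes of the mitochondrial genome. This rule gave 111 of the 52081 genes that all libraries share, of which 98 are nuclear and 13 are mitochondrial. It uses names only and no measured value. By their names, the nuclear members comprise 39 subunit genes and 8 assembly factors of complex I, 4 genes of complex II, 8 of complex III, 21 of complex IV and 18 of complex V. The counts include rarely detected paralogues, and Atp5o is counted under both of its gene identifiers. The mitochondrial members comprise 7 genes of complex I, 1 of complex III, 3 of complex IV and 2 of complex V.

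Cells were taken from fracture callus at 14 days after femoral fracture and profiled by droplet single-cell RNA sequencing, which counts the 3′ ends of transcripts as unique molecular identifiers (UMIs). There were 3 control libraries, labelled wild type and described in the methods as Piezo1 f/f mice without Cre, and 3 knockout libraries, labelled Col2CreERT with Piezo3-/- in the sample labels and with Piezo1 in the series text. The mice were described as males of 12 weeks, and controls as well as knockouts were given tamoxifen (75 mg/kg) daily for 5 days, the first dose falling on day 5. The Col2a1-CreERT2 driver acts in Col2a1-expressing cells, so the other cell types of a knockout callus are not its intended targets. Piezo1 does not check the labels here, since 3′ counting can still see a deleted transcript: in cartilage-like cells it was at 68.2, 42.3 and 53.5 CPM (UMIs of a gene per 1000000 UMIs) in the controls and at 138, 54.3 and 47.3 in the knockouts. Nothing in the labels says that the libraries come from separate animals, so p-values measure only the spread between these samples.

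The libraries held 3482 to 11447 barcodes and 57626530 to 103784364 UMIs, and 41863 cells were kept. Libraries 1 of both groups stood apart: 41.0% of their cells fell in clusters of few UMIs, against 1.23 to 5.66% elsewhere. Knockout 3 had Xist at 579 CPM and almost no Y-linked UMIs, while the other 5 libraries had the reverse, although all mice are described as male. No pair of libraries shared more than 36 barcodes. Cells were clustered with all 111 members, all genes of the mitochondrial genome and the genes overlapping ribosomal RNA kept out, and clusters were named "-like" from marker genes. The names came from these same markers, so their sums describe the classes and do not test the names. The markers stood where the names put them: the 8 osteoclast markers summed to 17889.5 to 33177 CPM in osteoclast-like cells and 512 to 1124 in macrophage-like cells, and the 10 pericyte markers to 16970.3 to 24684 in pericyte-like and 458 to 1001 in endothelial-like cells. The exception was the 24 chondrocyte-like cells of knockout 2, in which the 12 chondrocyte markers summed to 20432 CPM against 53453 to 113052 in the other libraries, and the 11 osteoblast markers to 71467 against 3607 to 19900. Only some results that use these cells are also given with that library left out. Cells left without a class name made up 55.7% of control 1 and 56.2% of knockout 1, against 9.86 to 25.8% elsewhere. They were 9830 stromal cells and 617 others, and comparisons between classes leave them out unless an alternative says otherwise.

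Complexes I, III and IV pass electrons from NADH to oxygen and pump protons, complex II feeds electrons in from succinate, and complex V uses the proton gradient to make ATP. Some core subunits of complexes I, III, IV and V are encoded in mitochondrial DNA and the remaining subunits in the nucleus. Building the chain thus needs both genomes, while complex II is entirely nuclear. In bone, osteoclasts are known for dense mitochondria, neutrophils for few, and chondrocytes for a glycolytic life in avascular cartilage.

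For some mitochondrial members a count cannot be tied to 1 gene, because the nuclear genome carries copies. In the last 400 bases of the annotated transcripts, every run of 90 bases of mt-Co1 is also found in another annotated gene, as are 99.7% of those of mt-Co3, 99.0% of those of mt-Co2 and mt-Atp6, 98.6% of those of mt-Nd4l and 97.7% of those of mt-Nd3. For mt-Nd2 the share was 12.9%, and it was 0% for mt-Nd1, mt-Nd4, mt-Nd5, mt-Nd6, mt-Cytb and mt-Atp8. Of the 98 nuclear members, 29 shared any such run and 2 shared at least 50%. The copies are mainly a block of pseudogenes on chromosome 1. The following bases show how close they are in 2 cases, mt-Co2 (chrM:7013-7696, plus strand, GRCm38; bases 592 to 681 of the gene) with Gm28661 (chr1:24614885-24615565, minus strand), and the start of mt-Nd3 (chrM:9459-9806, plus strand) with Gm28438 (chr1:24612775-24613119, minus strand). They are written 5′ to 3′, with the base that differs in capitals.
mt-Co2: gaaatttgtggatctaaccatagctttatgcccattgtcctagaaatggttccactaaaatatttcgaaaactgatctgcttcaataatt
Gm28661: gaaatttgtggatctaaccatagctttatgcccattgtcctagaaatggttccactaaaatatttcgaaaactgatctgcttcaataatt
mt-Nd3: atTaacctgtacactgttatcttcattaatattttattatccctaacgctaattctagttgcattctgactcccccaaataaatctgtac
Gm28438: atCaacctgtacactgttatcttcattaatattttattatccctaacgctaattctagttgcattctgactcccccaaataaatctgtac
mt-Co2 and Gm28661 were identical over all 681 aligned bases, and mt-Nd3 and Gm28438 differed at 1 of 345. The UMIs that were counted fell mostly on the mitochondrial gene, with 8776 UMIs for mt-Co2 against 518 for Gm28661, 139203 for mt-Nd3 against 68 for Gm28438, and 380946 for mt-Co1 against 397 for its copy Gm29216. How reads that fit both genes were treated is not known here, so these counts do not show what part of the reads was kept. Values of mt-Co1, mt-Co2, mt-Co3, mt-Atp6, mt-Nd3 and mt-Nd4l are therefore those that the authors' counting left on the gene. The shares and sums below hold them as such. mt-Nd4l also overlaps mt-Nd4, and mt-Atp8 overlaps mt-Atp6, each on a shared transcript.

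All 111 members had at least 1 UMI, 72 reached 100 CPM over all cells and 7 stayed under 1 CPM. Levels of nuclear members are given in CPM of the UMIs outside the mitochondrial genome and those of mitochondrial members in CPM of all UMIs, with no division by length because each UMI marks a transcript end. mt-Cytb, the cytochrome b of complex III, was highest at 4723 ± 1598 (SD, n = 6 libraries), followed by mt-Nd1 at 2306, mt-Nd4 at 2221 and mt-Nd2 at 1802. The most abundant nuclear member was Cox4i1, a regulatory subunit of complex IV, at 888 CPM. At the other end, Cox7b2 had 2 UMIs in all, and Cox8c and the lower of the Atp5o entries had 1 each.

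The first question was how the 2 genomes' contributions differ between cell classes. The nuclear share is the percent of UMIs outside the mitochondrial genome that fall on the 98 nuclear members, and the mitochondrial share is the percent of all UMIs that fall on the 13 mitochondrial members. A share says nothing of the total RNA of a cell, so more of these transcripts and less of the others cannot be told apart. Over all cells the nuclear share was 2.07% ± 0.654 and the mitochondrial share 1.31% ± 0.307 (SD, n = 6 libraries). Osteoclast-like cells had the highest of both, with a nuclear share of 5.17% ± 1.05 and a mitochondrial share of 2.59% ± 0.473. Neutrophil-like cells had the lowest, 1.06% ± 0.241 and 0.456% ± 0.141. The highest neutrophil-like library, at a nuclear share of 1.33%, lay under the lowest osteoclast-like library at 3.37%.

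Between these ends the 2 shares did not follow the same order. Haematopoietic progenitor-like cells had a nuclear share of 3.09% ± 0.227 in 4 libraries, above pericyte-like cells at 2.37% ± 0.516 and macrophage-like cells at 2.10% ± 0.485, both in 6. The 4 leave out control 1 and knockout 1, where pericyte-like and macrophage-like cells had their lowest nuclear shares. These means therefore rest on unlike sets of libraries. For the mitochondrial share, marrow stromal-like cells came next after osteoclast-like cells with 2.05% ± 0.393, before pericyte-like cells with 1.59% ± 0.207 and osteoblast-like cells with 1.499% ± 0.227. The cap on mitochondrial UMIs per cell removed 6.78% of marrow stromal-like cells, from 0 to 26.3% by library. It removed 8.48% of osteoclast-like, 2.20% of osteoblast-like, 0.589% of pericyte-like and 11.8% of unnamed stromal cells. The part of this removal in the order was not tested. Hypertrophic chondrocyte (HTC)-like cells had an ordinary nuclear share, 1.81% ± 0.382, and the lowest mitochondrial share but one, 0.627% ± 0.216. Mitochondrial UMIs per nuclear member UMI ran from 0.354 ± 0.103 in HTC-like cells to 1.14 ± 0.3601 in marrow stromal-like cells among the 13 classes present in 6 libraries. Osteoclast-like cells, top on both shares, were at 0.540 on this ratio.

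Most classes next to each other in the order differed by less than their spread. The order was drawn from these same shares, so the choice of neighbours and the sign of each mean difference were set by the values tested. The p-values of neighbours are therefore only descriptive. Among the 13 classes in 6 libraries, 5 of 24 neighbouring pairs had the same direction in all 6 libraries, which gives the smallest exact sign-flip p possible, 0.031, and an adjusted p of 0.15 over the 24 pairs, so the adjusted test has little power to separate neighbours. These were osteoclast-like over pericyte-like cells (difference 2.80 percentage points, with the lowest osteoclast-like library at 3.37% and the highest pericyte-like library at 3.10%), pericyte-like over macrophage-like (0.272) and chondrocyte-like over neutrophil-like (0.631) for the nuclear share, and marrow stromal-like over pericyte-like (0.460) and HTC-like over neutrophil-like (0.171) for the mitochondrial share.

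**Figure D1:**
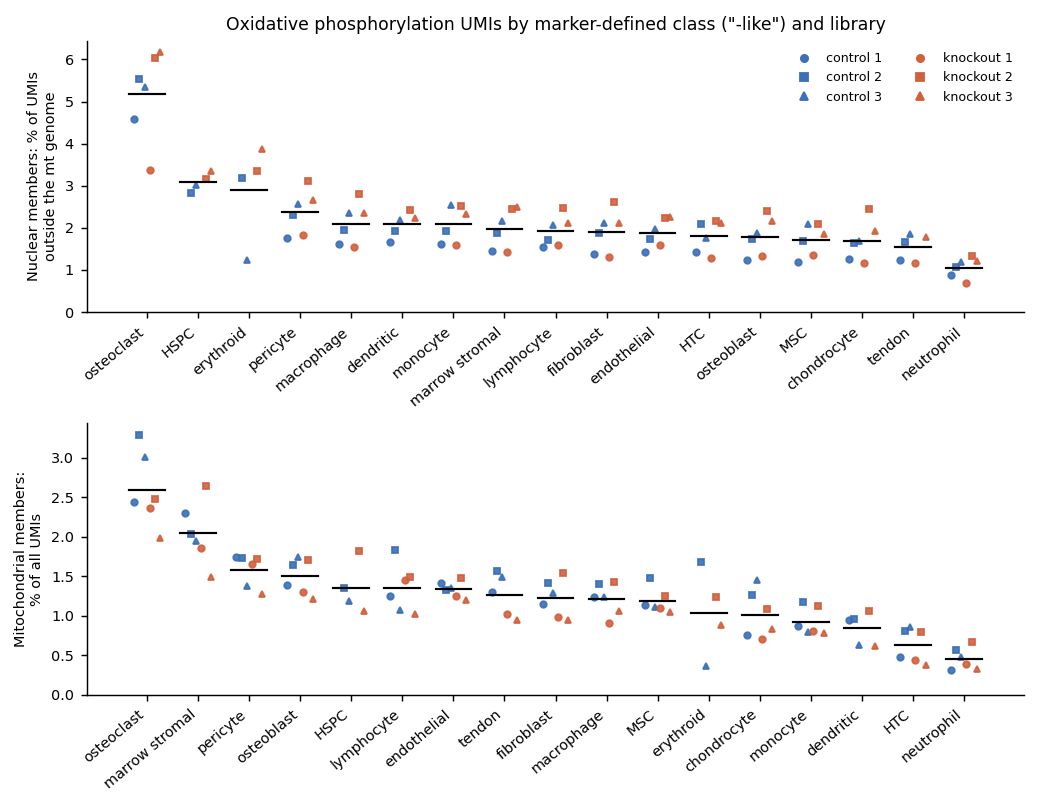
Nuclear and mitochondrial shares (percent of UMIs) by cell class, each symbol being 1 library (blue control, orange knockout) and each black bar the mean. Osteoclast-like cells sit highest on both shares (means 5.17% and 2.59%) and neutrophil-like cells lowest (1.06% and 0.456%), while HTC-like cells are low on the mitochondrial share only.

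In each of 5 pairs of related classes the members were then tested one by one with edgeR's quasi-likelihood test on summed counts, with the library as a block, and the shares with an exact 2-sided sign-flip test over 6 libraries, for which 0.031 is the smallest p possible and 0.0391 its adjusted value over the 10 share tests. Adjusted p-values of single genes are Benjamini-Hochberg values from edgeR over all genes tested.

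Osteoclast-like cells carried more of nearly every member than macrophage-like cells, which share their myeloid origin. The nuclear share was higher by 3.07 ± 0.695 percentage points (SD of 6 library differences, which ran from 1.82 to 3.82), a ratio of means of 2.46, and the mitochondrial share by 1.38 ± 0.389, a ratio of 2.14. Both differences held in 6 of 6 libraries (exact p = 0.031, adjusted p = 0.0391). Of 102 members tested 96 rose and 1 fell, where of all genes 61.4% were called, 30.2% as higher and 31.1% as lower. The median log2 fold change was 1.23 for the nuclear members and 0.91 for the mitochondrial members, against −0.02 over all genes. Beside this stand the depths and the quality of the cells. Median UMIs per osteoclast-like cell were 2342 in knockout 1, from 37 cells, and 11018 to 32667 in the other libraries, against 5277 to 16351 in macrophage-like cells. The cap on mitochondrial UMIs removed 8.48% of osteoclast-like and 1.98% of macrophage-like cells. Their part in the result was not tested beyond the alternatives given in the closing section.

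All complexes were higher, to unequal extents. As log2 ratios of summed UMIs, complex II stood at 1.63 and nuclear complex III at 1.62, above complex V at 1.34, complex IV at 1.27, complex I at 1.14 and the complex I assembly factors at 0.87. The mitochondrial parts were 1.25 for complex III, 1.05 for complex I, 0.76 for complex IV and 0.75 for complex V. Each of these sums was higher in 6 of 6 libraries.

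The largest rise was in Uqcr10, a small subunit of complex III (ENSMUSG00000059534, chr11:4701973-4704342, minus strand). In control libraries 1, 2 and 3 and then knockout libraries 1, 2 and 3, an order kept below, it was at 243, 307, 385, 191, 474 and 396 CPM in macrophage-like cells and at 1117, 1481, 1631, 854, 1713 and 1822 in osteoclast-like cells. The classes did not overlap, and the log2 fold change was 2.08 (SE 0.0934, edgeR adjusted p = 1.45e-10). Uqcrfs1, the Rieske iron-sulfur protein of the same complex, was at 92.5 to 143 CPM against 381 to 607 (log2 fold change 1.90, SE 0.107). Uqcrc2, a core protein of complex III, was at 71.7 to 101 against 245 to 394 (1.88, SE 0.116). Again no osteoclast-like library came near the macrophage-like range.

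All 4 subunits of complex II rose. Sdha, the flavoprotein that oxidises succinate, was at 84.6 to 122 CPM in macrophage-like and 299 to 473 in osteoclast-like cells (log2 fold change 1.75). The iron-sulfur subunit Sdhb and the membrane anchors Sdhc and Sdhd had log2 fold changes of 1.54, 1.39 and 1.57. In complex V the 3 genes for the c subunit of the rotor ring, whose mature protein is the same, rose unequally, by log2 fold changes of 1.71 for Atp5g1, 1.00 for Atp5g2 and 1.77 for Atp5g3.

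Cox7a1, the isoform of complex IV subunit 7a known from heart and skeletal muscle, was low in both classes but passed from 4.81 to 9.97 CPM in macrophage-like to 29.1, 32.4, 36.6, 19.1, 41.7 and 40.5 in osteoclast-like cells (log2 fold change 2.06, SE 0.141, edgeR adjusted p = 1.23e-08). Its common counterpart Cox7a2 rose less, by a log2 fold change of 1.38. Among the complex I assembly factors Ndufaf5, which modifies a core subunit, went from 7.20, 6.13, 6.47, 8.67, 7.09 and 6.81 CPM to 23.2, 27.9, 21.1, 21.1, 25.7 and 26.3 (log2 fold change 1.80, SE 0.148). Ndufaf7, a methyltransferase that acts early in complex I assembly, was the 1 member that fell, from 15.0, 12.3, 15.8, 8.99, 13.7 and 15.1 to 11.6, 10.6, 8.05, 9.57, 6.78 and 9.81 CPM, with the order turned in knockout 1 on this scale (log2 fold change −0.68, SE 0.163, edgeR adjusted p = 0.00222).

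Genes around the chain were also higher in osteoclast-like cells, the regulators less uniformly. Of 13 tested genes for replication, transcription and translation of mitochondrial DNA 11 rose and none fell, among them the elongation factor Tufm (log2 fold change 1.43), the RNA-stabilising Lrpprc (1.33) and the packaging factor Tfam (0.95). All 6 electron and ATP carriers rose, including cytochrome c (Cycs, 2.02) and the ADP/ATP translocase Slc25a4 (1.93). Of 7 transcriptional regulators 3 rose, with Ppargc1b, a coactivator of mitochondrial biogenesis, at 3.99 and its partner Esrra at 1.21, and 1 fell, Ppard at −0.64, a count near that of all genes, of which 30.2% were called higher and 31.1% lower. Of 30 assembly factors of the other complexes, outside the naming rule, 24 rose and none fell.

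Neutrophil-like cells had lower shares than monocyte-like cells. The nuclear share was lower by 1.03 ± 0.226 percentage points, a ratio of 0.506, and the mitochondrial share by 0.472 ± 0.102, a ratio of 0.491, in 6 of 6 libraries (exact p = 0.031, adjusted p = 0.0391). Of 95 members tested 55 fell and 1 rose, where of all genes 57.8% were called, 28.4% as lower and 29.4% as higher. Sums for every complex of both genomes were lower in 6 of 6 libraries, with log2 ratios between −0.76 and −1.24. On the TMM scale, which balances the bulk of the genes, the median log2 fold change was −0.48 for nuclear and −0.45 for mitochondrial members, a smaller difference than that of the shares. Beside it, the 10 neutrophil markers took 158901 to 378605 CPM in neutrophil-like and 399 to 6246 in monocyte-like cells. Median UMIs were 1614 to 5742 and 3336 to 13948 per cell.

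The largest falls were in complex I. Ndufaf4, an assembly factor, was at 12.04, 22.0, 21.6, 15.6, 22.1 and 26.0 CPM in monocyte-like cells and at 3.06, 2.29, 2.92, 5.33, 5.62 and 5.83 in neutrophil-like cells (log2 fold change −1.72, SE 0.274, edgeR adjusted p = 8.59e-05). The core subunits Ndufs3 and Ndufs8 were at 46.7 to 80.9 against 9.19 to 22.1 and at 92.5 to 165 against 16.0 to 46.2 CPM (log2 fold changes −1.27 and −1.26). The accessory subunit Ndufb5 had −1.20. Atp5g1 was at 202 to 281 against 51.5 to 100 CPM (log2 fold change −1.02, SE 0.153). The classes did not overlap for any of these 5 genes. Of the genes around the chain, 9 of 20 assembly factors fell and 1 rose (Cox17, a copper chaperone, 1.23), 4 of 6 carriers fell and none rose, and of 11 genes of mitochondrial DNA expression 6 fell, led by Lrpprc (−1.70), and 1 rose, the DNA polymerase subunit Polg (0.73). Of 6 regulators 1 rose (Nrf1, 0.55) and 1 fell (Pprc1, −1.10).

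HTC-like cells, which carry the markers of the last stage of cartilage, differed from chondrocyte-like cells in the mitochondrial part. The mitochondrial share was lower by 0.388 ± 0.135 percentage points, a ratio of 0.618, in 6 of 6 libraries (exact p = 0.031, adjusted p = 0.0391). The nuclear share differed by 0.121 ± 0.239, higher in 5 of 6 libraries (exact p = 0.281). Of 13 mitochondrial members 12 fell and none rose, with a median log2 fold change of −0.74. Of 88 nuclear members 7 rose and 6 fell, with a median of 0.01. Over all genes 37% were called, 17.7% as higher and 19.4% as lower. HTC-like cells numbered only 12, 16 and 23 in control 2, control 3 and knockout 2, and 415 of the 607 came from knockout 3. The chondrocyte-like cells of knockout 2 were the 24 with few cartilage markers. Without that library fewer than 6 remain, and the exact test cannot pass. Of the 25 members called in all, 12 were called without knockout 3 and 16 without control 1. Adding a cluster led by Chil1 to the HTC-like cells took the mitochondrial difference to −0.0863 and the nuclear one to −0.0553, and leaving out integration took the first to −0.145.

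mt-Nd5, a core proton-pumping subunit of complex I, was at 349, 674, 686, 257, 268 and 329 CPM in chondrocyte-like and at 176, 419, 340, 167, 166 and 141 in HTC-like cells, lower in every library although the 2 ranges overlap (log2 fold change −0.96, SE 0.139, edgeR adjusted p = 6.34e-05). mt-Nd4 of the same complex, also at −0.96, was at 1206 to 2238 and at 537 to 1270. mt-Cytb was at 1956 to 5953 and at 1125 to 3494 (−0.88, SE 0.181). mt-Nd4l had the largest fitted fall (−1.46, SE 0.365), but on 0 to 4.99 CPM in HTC-like and 1.2 to 19.2 in chondrocyte-like cells. These calls are not equally firm: with the Chil1-led cluster added none of the 4 passed, and without knockout 3 mt-Nd4l did not.

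Among the nuclear members of this pair 2 moved strongly and in opposite directions. Cox7a2l, which joins complexes III and IV into supercomplexes, was at 175, 181, 111, 180, 281 and 164 CPM in chondrocyte-like and at 489, 238, 321, 512, 412 and 437 in HTC-like cells (log2 fold change 1.11, SE 0.192, edgeR adjusted p = 0.000296). Ndufa4l2, a paralogue of the complex IV subunit Ndufa4 known to be induced by hypoxia, was at 459, 430, 379, 380, 9.38 and 463 CPM in chondrocyte-like and at 81.5, 172, 29.1, 46.8, 5.60 and 169 in HTC-like cells (log2 fold change −2.29, SE 0.252, edgeR adjusted p = 3.71e-06). The value of 9.38 is that of the 24 cells of knockout 2 with few cartilage markers, and both genes passed without that library too. In HTC-like cells Ndufa4l2 was also lowest in knockout 2, at 5.60. Its low level in that library is thus not a trait of the 24 cells alone. Of 6 regulators 3 rose, with Ppard at 0.99, and Pprc1 fell (−1.15). Of 13 genes of mitochondrial DNA expression 1 fell (Tufm, −0.59), as did 1 of 6 carriers (Slc25a5, −0.43), and of 31 assembly factors 2 rose and 3 fell.

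Osteoblast-like cells had the opposite mitochondrial difference from chondrocyte-like cells. Their mitochondrial share was higher by 0.484 ± 0.153 percentage points, a ratio of 1.48, in 6 of 6 libraries (exact p = 0.031, adjusted p = 0.0391), and the nuclear share differed by 0.106 ± 0.108, higher in 4 of 6 (exact p = 0.125, adjusted p = 0.139). The mitochondrial difference did not pass without integration (0.347) or at a clustering resolution of 1.2 (0.389), and the nuclear one passed at that resolution (0.281) and was −0.00259 with clusters of few UMIs counted as chondrocyte-like. Of 13 mitochondrial members 10 rose and none fell (median log2 fold change 0.57). Of the nuclear members 18 rose and 5 fell (median 0.13). Over all genes 31.9% were called, 15% as higher and 16.8% as lower. The count of 33 members became 19 without control 1 or without knockout 1 and 20 without knockout 3. In log2 ratios of the sums, the mitochondrial parts of complexes I, III, IV and V stood at 0.52, 0.75, 0.52 and 0.61, against 0.08, 0.11, 0.01 and 0.19 for the nuclear parts and 0.18 for complex II. Beside this, median UMIs per cell were lower in osteoblast-like than in chondrocyte-like cells in all 6 libraries, at 7417.5 to 31113 against 7826 to 47086.5, the cap on mitochondrial UMIs removed 2.20% against 0.230% of cells, and Mir6236 and Lars2, which overlap ribosomal RNA, rose by log2 fold changes of 0.67 and 0.75. Their part in the result was not tested. The HTC-like and osteoblast-like comparisons share the chondrocyte-like cells, so they are not independent of each other. In knockout 2 both rest on the 24 chondrocyte-like cells with low cartilage and high osteoblast markers. Without that library fewer than 6 remain, and the exact test of the shares cannot pass.

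mt-Cytb was at 1975, 4221, 5953, 1956, 4162 and 3452 CPM in chondrocyte-like and at 4229, 6063, 7380, 4098, 7371 and 5469 in osteoblast-like cells (log2 fold change 0.79, SE 0.139, edgeR adjusted p = 0.00111). mt-Atp8, a subunit of complex V, was at 142, 198, 270, 78.9, 40.7 and 104 and at 235, 269, 343, 134, 78.5 and 185 (0.69, SE 0.111). Both were higher in every osteoblast-like sample than in the chondrocyte-like cells of the same library. mt-Nd4 and mt-Nd3 had log2 fold changes of 0.72 and 0.64, and the nuclear complex I subunit Ndufa1 0.73. At a clustering resolution of 1.2 none of these 5 passed, and Ndufa1 came to −0.07 at its lowest across the alternatives.

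The members that fell in osteoblast-like cells were led by Cox4i2, the isoform of complex IV subunit 4 known to respond to low oxygen. It was at 169, 186, 107, 142, 193 and 245 CPM in chondrocyte-like and at 32.9, 30.02, 37.5, 44.0, 29.0 and 58.1 in osteoblast-like cells (log2 fold change −2.14, SE 0.156, edgeR adjusted p = 1.63e-06), and no library of one class reached the other. The complex I subunit Ndufa8 was at 136 to 217 against 77.6 to 150 (−0.65, SE 0.113). Both passed under each alternative run. Around the chain, the regulators Ppargc1b (1.39) and Esrra (0.81) rose and Ppard (−0.43) fell among 7, 3 of 13 genes of mitochondrial DNA expression rose, 1 of 6 carriers rose (Slc25a5, 1.13), and of 31 assembly factors 1 rose and 5 fell, led by Higd1a (−1.78), a hypoxia-inducible factor of complex IV.

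Pericyte-like cells were set against endothelial-like cells, their neighbours in the vessel wall. The nuclear share was higher by 0.506 ± 0.225 percentage points (ratio 1.27) and the mitochondrial share by 0.2496 ± 0.165 (ratio 1.19), both in 6 of 6 libraries (exact p = 0.031, adjusted p = 0.0391). As a median over cells the mitochondrial difference was 0.304 and did not pass. Of 102 members 70 rose and 4 fell, where of all genes 49.8% were called, 24.8% as higher and 25.1% as lower. The median log2 fold change was 0.33 for nuclear and 0.23 for mitochondrial members. Most of these differences were small, with log2 ratios of the sums from 0.19 for the complex I assembly factors to 0.45 for nuclear complex IV, and −0.02 and −0.07 for the mitochondrial parts of complexes IV and V.

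The 4 largest rises were all of tissue- or oxygen-dependent isoforms of complex IV. Ndufa4l2 (chr10:127514967-127517154, plus strand) was at 599, 755, 1025, 708, 1161 and 880 CPM in pericyte-like and at 26.3, 16.2, 7.57, 10.4, 4.38 and 41.0 in endothelial-like cells (log2 fold change 5.85, SE 0.482, edgeR adjusted p = 2.78e-06). Cox4i2 (chr2:152754173-152765037, plus strand) was at 213, 269, 278, 142, 435 and 334 against 11.8, 6.21, 2.58, 7.59, 3.13 and 21.7 (5.23, SE 0.421). Cox6b2, the isoform of subunit 6b known from testis, was at 19.2 to 48.1 against 1.42 to 3.46 (3.79, SE 0.232), and Cox7a1 at 3.69 to 13.5 against 0.949 to 1.85 (2.36, SE 0.305). None of the 4 overlapped between the classes.

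The paralogue of Ndufa4l2 went the other way. Ndufa4 was at 135, 117, 136, 107, 319 and 227 CPM in pericyte-like and at 273, 431, 554, 291, 593 and 544 in endothelial-like cells, lower in each library (log2 fold change −1.38, SE 0.151, edgeR adjusted p = 2.3e-05). Ndufa8 (−0.92) and Cox7a2l (−0.40) also fell, and the complex I subunit Ndufa13 rose from 166 to 327 to 327 to 660 CPM (1.02, SE 0.0793). Of 7 regulators 3 rose, Ppargc1b (3.00), Ppard (0.56) and Esrra (0.47), and 2 fell, Yy1 and Gabpa. Of 6 carriers 4 rose, of 12 genes of mitochondrial DNA expression 1 rose, and of 30 assembly factors 8 rose and 5 fell.

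**Figure D2:**
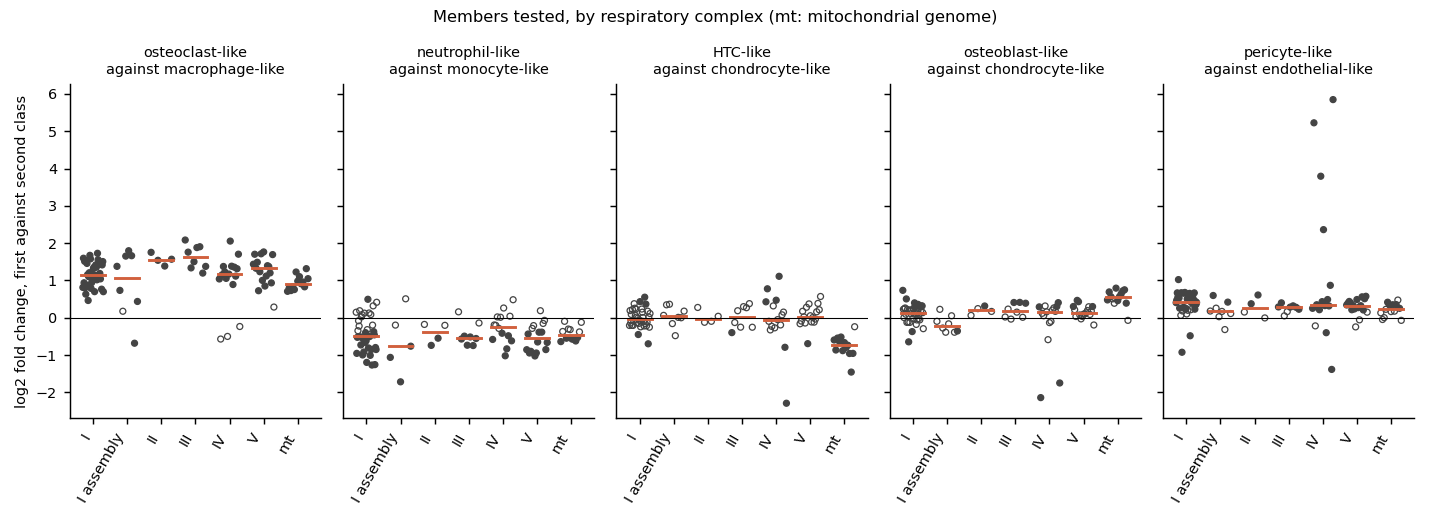
Log2 fold change of each member in 5 pairs of cell classes, grouped by complex and genome, with filled points at an adjusted p under 0.05 and orange bars at the median of a group. In the osteoclast-like panel 96 of 102 members rose, in the neutrophil-like panel 55 of 95 fell, in the HTC-like and osteoblast-like panels the mitochondrial groups moved and most nuclear groups lie near 0, and in the pericyte-like panel Ndufa4l2 at 5.85 and Cox4i2 at 5.23 stand clear of the rest.

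The balance within isoform pairs was then followed across classes, as the percent of a pair's UMIs that fall on the isoform of narrower use. Ndufa4l2 made up 83.6% ± 4.21 (SD, n = 6 libraries; 78.5 to 88.3) of the Ndufa4 pair in pericyte-like cells and 53.3% ± 27.6 in chondrocyte-like cells, where knockout 2 alone was at 1.82%. It made up 32.5% ± 21.6 in HTC-like, 28.8% in tendon-like, 27.7% in fibroblast-like and 22.5% in osteoblast-like cells, and 4.16%, 2.55% and 0.666% in endothelial-, macrophage- and osteoclast-like cells. Only the pericyte-like cells had it as the major form in every library.

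Cox4i2 had another order. It made up 26.0% ± 10.1 of the Cox4 pair in HTC-like cells, 21.8% ± 3.53 in pericyte-like and 21.4% ± 4.90 in chondrocyte-like cells, 3 classes whose libraries overlap, and then 6.02% in marrow stromal-like, 4.95% in osteoblast-like, 1.08% in endothelial-like and 0.185% in osteoclast-like cells. The Cox4i2 level itself was 151 to 647 CPM in HTC-like and 107 to 245 in chondrocyte-like cells. Cox6b2 was highest in erythroid-like cells, at 17.9% ± 5.23 of its pair (n = 4), and in pericyte-like cells, at 5.72% ± 1.45. Cox6a2, the muscle isoform, reached 10.1% ± 6.84 in dendritic-like cells (n = 5), Cox7a1 2.64% ± 0.237 in osteoclast-like cells, and Cox8b stayed at or under 0.427% in every class. Atp5g1 took 88.9 to 95.6% of the UMIs of Atp5g1 and Atp5g2 together.

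**Figure D3:**
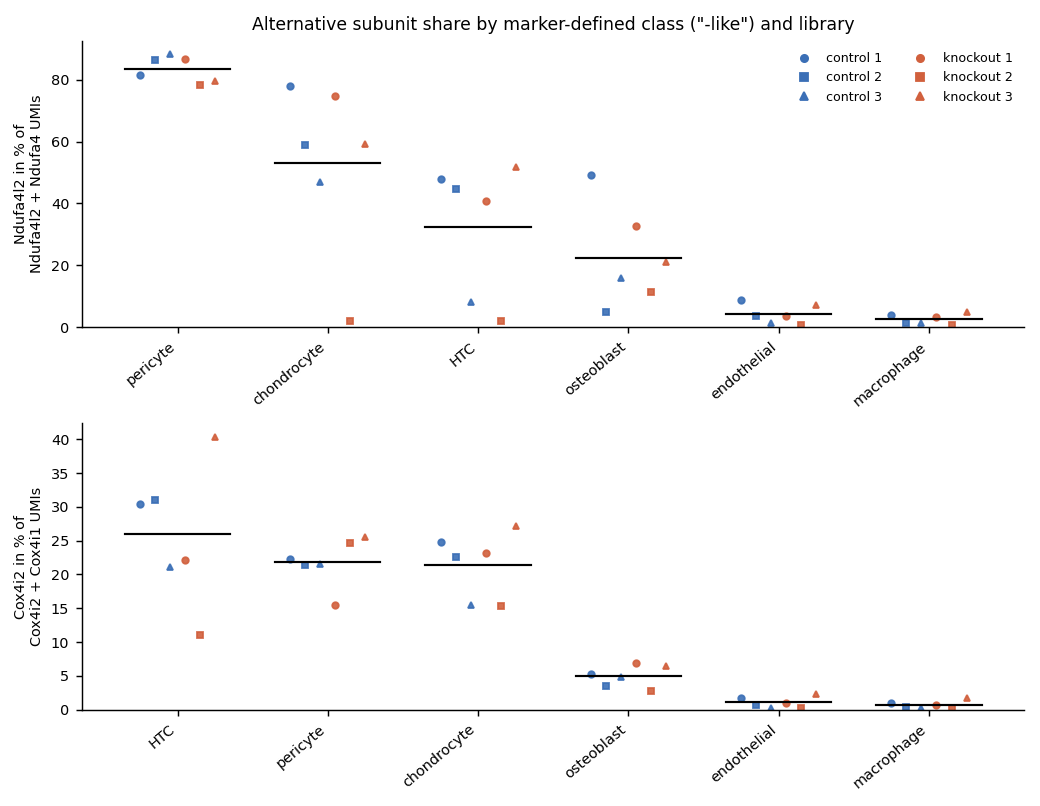
Percent of an isoform pair's UMIs on the isoform of narrower use, by cell class, each symbol being 1 library (blue control, orange knockout) and each bar the mean. Ndufa4l2 is the major form in pericyte-like cells (78.5 to 88.3%), and Cox4i2 is highest in HTC-like, pericyte-like and chondrocyte-like cells (means 26.0%, 21.8% and 21.4%).

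The mitochondrial members come from long transcripts of a single genome, yet their UMIs were very unequal. mt-Cytb took 28.0 to 42.3% of the sum of the 13 genes by library, mt-Nd1 13.95 to 21.0%, mt-Nd4 15.0 to 18.4% and mt-Nd2 12.6 to 16.0%. mt-Co1 took 4.39 to 8.16%, mt-Nd5 2.21 to 5.06%, mt-Nd3 1.1 to 3.62% and mt-Atp8 0.467 to 1.82%. mt-Nd6, the member encoded on the opposite strand, took 0.0958 to 0.434%. The genes with near-complete nuclear copies include the 4 with the highest ratio of the highest to the lowest library: mt-Atp6 took 0.216 to 2.93%, mt-Co3 0.111 to 1.08%, mt-Co2 0.0531 to 0.565% and mt-Nd4l 0.0225 to 0.125%. For mt-Atp6, mt-Co2 and mt-Co3 the 2 highest libraries were knockout 1 and control 1, which were counted with Cell Ranger 6.1.1 where the other 4 were counted with 6.1.2. The part of the copies or the counting in these levels was not tested.

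**Figure D4:**
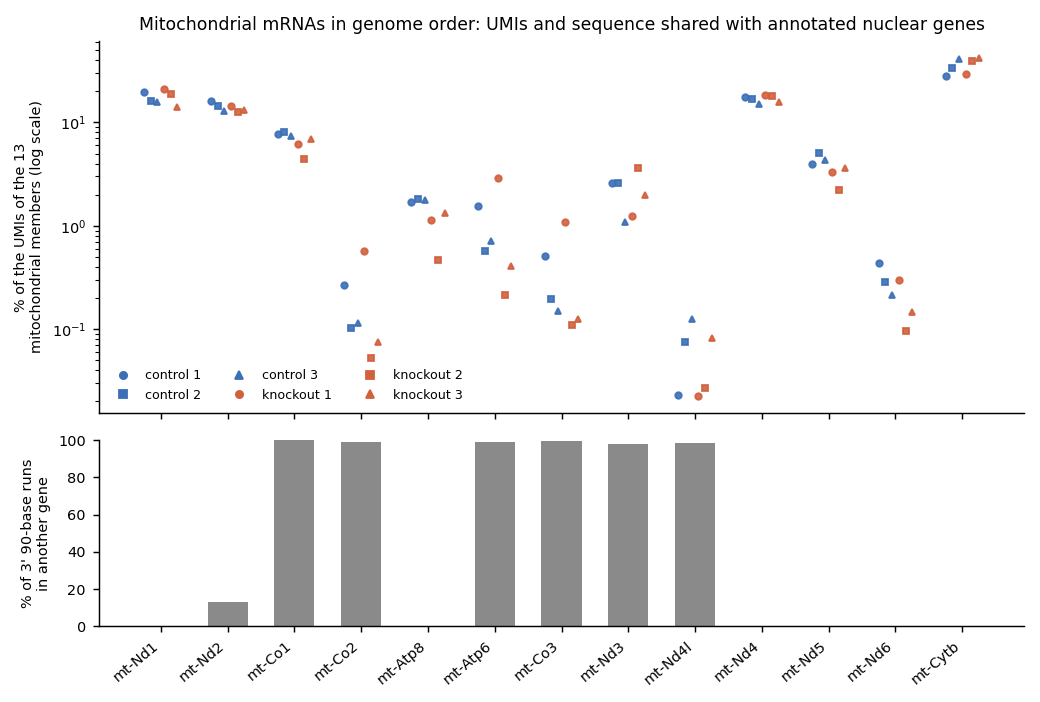
Upper panel, percent of the UMIs of the 13 mitochondrial members on each gene, by library, on a log axis (blue control, orange knockout); lower panel, percent of runs of 90 bases at the gene's 3′ end that another annotated gene also holds. mt-Cytb takes 28.0 to 42.3% with no shared runs, while mt-Co2 and mt-Co3, at 99.0% and 99.7% shared, take at most 0.565% and 1.08% and spread widely between libraries. Other genes go the other way: mt-Co1, with every run shared, takes 4.39 to 8.16%, and mt-Nd6, with none shared, 0.0958 to 0.434%.

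The nuclear members are known to be reached by a few shared transcription factors, so their promoters were read from RefSeq (GRCm38.p6, 250 bases before to 50 after the start), in which 74 of the 98 had an entry. The NRF1 motif GCGCANGCG, searched on both strands with overlaps allowed, was found in 21 of them, 28.4% against 6.47% of all 27025 promoters in the table. The YY1 motif AAGATGGCG was in 7 (9.46% against 1.49%), the ETS motif CCGGAAGT in 5 (6.76% against 4%) and the ERR motif TCAAGGTCA in 2 (2.70% against 0.407%). Any of these was in 30 (40.5% against 11.4%). The short HIF core ACGTG was in 17 (23.0% against 19.7%). A match describes letters and not binding. Ndufaf5 and Sdhd are printed as 2 of the 96 members that rose in osteoclast-like cells, and both hold matches. Uqcr10, Uqcrfs1 and Sdhb rose there too and hold none of the 4 motifs, so the printed sequences do not link a rise to a motif. Ndufs6, a complex I subunit chosen after these matches were seen, is printed because it holds NRF1 and YY1 motifs together. Cox7a1 is printed because it rose in osteoclast-like and pericyte-like cells and holds none of the 4, only a HIF core. The sequences are on the gene's strand with motif matches, of either strand, in capitals. They lie at chr2:140170396-140170695 (plus strand) for Ndufaf5, with 2 overlapping NRF1 matches, chr9:50603800-50604099 (minus strand) for Sdhd, with an NRF1 and an ERR match, chr13:73328433-73328732 (minus strand) for Ndufs6 and chr7:30183921-30184220 (plus strand) for Cox7a1.
Ndufaf5: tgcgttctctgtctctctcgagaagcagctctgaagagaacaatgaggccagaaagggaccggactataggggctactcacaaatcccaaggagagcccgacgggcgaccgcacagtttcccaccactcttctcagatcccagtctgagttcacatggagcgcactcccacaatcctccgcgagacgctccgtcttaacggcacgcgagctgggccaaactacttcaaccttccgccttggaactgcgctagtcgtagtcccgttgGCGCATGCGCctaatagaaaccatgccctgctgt
Sdhd: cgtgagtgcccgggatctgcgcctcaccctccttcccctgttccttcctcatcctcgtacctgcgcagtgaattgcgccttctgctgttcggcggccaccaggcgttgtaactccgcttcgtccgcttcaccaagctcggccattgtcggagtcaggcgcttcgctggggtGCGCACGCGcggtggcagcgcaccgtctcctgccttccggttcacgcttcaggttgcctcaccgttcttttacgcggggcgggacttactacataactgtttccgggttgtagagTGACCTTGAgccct
Ndufs6: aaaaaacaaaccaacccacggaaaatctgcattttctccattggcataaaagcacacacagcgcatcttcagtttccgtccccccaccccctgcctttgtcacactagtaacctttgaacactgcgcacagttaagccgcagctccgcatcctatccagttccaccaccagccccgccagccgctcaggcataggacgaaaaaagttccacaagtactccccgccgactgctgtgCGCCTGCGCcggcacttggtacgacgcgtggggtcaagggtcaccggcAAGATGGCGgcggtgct
Cox7a1: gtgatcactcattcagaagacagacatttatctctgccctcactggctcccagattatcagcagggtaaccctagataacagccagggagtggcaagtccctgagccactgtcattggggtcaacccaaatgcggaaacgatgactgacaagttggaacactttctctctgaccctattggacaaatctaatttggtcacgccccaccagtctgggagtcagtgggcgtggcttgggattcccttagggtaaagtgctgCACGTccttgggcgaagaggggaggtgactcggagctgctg

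The last question was whether the groups differed, in 4 classes with enough cells: cartilage-like (chondrocyte-like and HTC-like together), osteoblast-like, endothelial-like and macrophage-like. With edgeR no member passed an adjusted p of 0.05 in any class, and neither did any other gene, so 0% of the 14575, 10638, 13935 and 11911 genes tested were called. At an unadjusted p under 0.05 there were 5 of 102, 6 of 101, 11 of 102 and 4 of 103 members, and 330, 368, 763 and 222 genes. DESeq2 called 0 members. None of the lists of mitochondrial DNA expression, regulators, carriers or assembly factors held a called gene.

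No difference in the 2 shares passed the test, and the groups overlapped in all 4 classes. In cartilage-like cells the nuclear share was 1.54% ± 0.228 in controls and 1.83% ± 0.583 in knockouts (SD, n = 3 each; difference 0.285, exact permutation p = 0.5), and the mitochondrial share 1.13% ± 0.374 and 0.786% ± 0.157 (difference −0.344, exact permutation p = 0.3). The nuclear differences in osteoblast-, endothelial- and macrophage-like cells were 0.353, 0.309 and 0.256 and the mitochondrial ones −0.191, −0.0573 and −0.165, with exact permutation p-values from 0.3 to 0.7 and adjusted values from 0.571 to 0.7. With 3 against 3 libraries no p under 0.1 is possible. The cartilage-like cells of knockout 2 were 24 chondrocyte-like cells, which had few cartilage markers, and 23 HTC-like cells. Differences with 1 library left out are given in the closing section. Within the libraries counted with Cell Ranger 6.1.2, 2 a group, the cartilage-like differences were 0.475 and −0.496. Without replicate 3 of both groups, which leaves out the Xist-positive library, they were 0.292 and −0.166.

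Some single mitochondrial members had groups that did not overlap, though nuclear and mitochondrial members together did so no more often than about the rate of all genes. On the TMM-scaled values used in the fit these were mt-Atp8 and mt-Nd6 in cartilage-like cells, and mt-Co1, mt-Atp8, mt-Nd5 and mt-Nd6 in each of osteoblast-, endothelial- and macrophage-like cells, all lower in the knockout libraries. The share of all genes with non-overlapping groups that were lower in the knockout was 4.4%, 4.34%, 5.42% and 3.45% in these 4 classes, against 2 of 102, 5 of 101, 4 of 102 and 4 of 103 members. The 5 in osteoblast-like cells include the nuclear Ndufs1. Of the 13 mitochondrial members alone, 2, 4, 4 and 4 were lower without overlap, a larger share than that of all genes. These genes share a single genome and the same 6 libraries, so they are not separate results. The values below are a description and not a result about the members. The classes come from the same 6 libraries, so they are not 4 separate tests, and endothelial- and macrophage-like cells are not cells in which the Cre driver is meant to act.

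In endothelial-like cells mt-Co1, the catalytic subunit of complex IV, was at 1125, 1175 and 1150 CPM in the controls and at 671, 779 and 866 in the knockouts (log2 fold change −0.51). In cartilage-like cells it was at 625, 931 and 1091 against 463, 368 and 578, apart on this scale but not on the TMM scale. mt-Atp8 in cartilage-like cells was at 132, 196 and 264 against 75.3, 39.9 and 90.8 (log2 fold change −1.46), and in endothelial-like cells at 283, 291 and 299 against 143, 96.4 and 205 (−0.90). For mt-Atp8 the lowest library was knockout 2 both times.

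mt-Nd5 in macrophage-like cells was at 446, 671 and 571 against 265, 321 and 357 (log2 fold change −0.86), and mt-Nd6 at 55.1, 31.1 and 24.4 against 21.1, 12.3 and 10.8 (−1.31). mt-Nd6 in cartilage-like cells was at 46.7, 50.5 and 34.5 against 35.1, 14.4 and 16.5 CPM, which overlap on this scale (−0.93). The abundant mt-Cytb showed no such gap, being in endothelial-like cells at 3967, 4511 and 5407 against 3860, 5476 and 5128. Without the filter on low counts the adjusted p in edgeR passed for mt-Atp8 in cartilage-like cells (0.0242) and for mt-Nd6 in endothelial-like (0.0198) and macrophage-like cells (0.0408). The share of all genes that passed in that setting is not given here, so these calls are not a result about the members.

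Summed by complex, 7 of 40 comparisons had groups that did not overlap, each with an exact permutation p of 0.1 and an adjusted p of 0.571. Under random assignment, 3 against 3 libraries separate fully with a probability of 0.1. The 7 come from the mitochondrial part of complex IV and from complex II, repeated over classes of the same 6 libraries, so they are not 7 separate results. The mitochondrial part of complex IV, mostly mt-Co1, was lower in the knockouts in all 4 classes, for example 0.121% ± 0.00186 against 0.0850% ± 0.00422 of UMIs in endothelial-like and 0.0922% against 0.0515% in cartilage-like cells. Complex II, which has no mitochondrial gene, was higher in osteoblast-like (0.0234% against 0.0290%), endothelial-like (0.0289% against 0.0355%) and macrophage-like cells (0.0397% against 0.0459%). Of its genes, Sdhc had non-overlapping groups in osteoblast- and endothelial-like cells on the TMM scale, but the groups overlapped in CPM. All nuclear members with non-overlapping groups on the TMM scale that were higher in the knockout numbered 1, 6, 8 and 1. Of all genes 2.69%, 4%, 5.84% and 2.64% were. The median log2 fold change of the nuclear members was 0.30, 0.40, 0.33 and 0.17. These shifts sit beside Mir6236 and Lars2, the measured genes that overlap ribosomal RNA, which were at log2 fold changes from −0.72 to −0.89 in the knockout and were not called. The part of ribosomal RNA in the mitochondrial values was not tested.

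**Figure D5:**
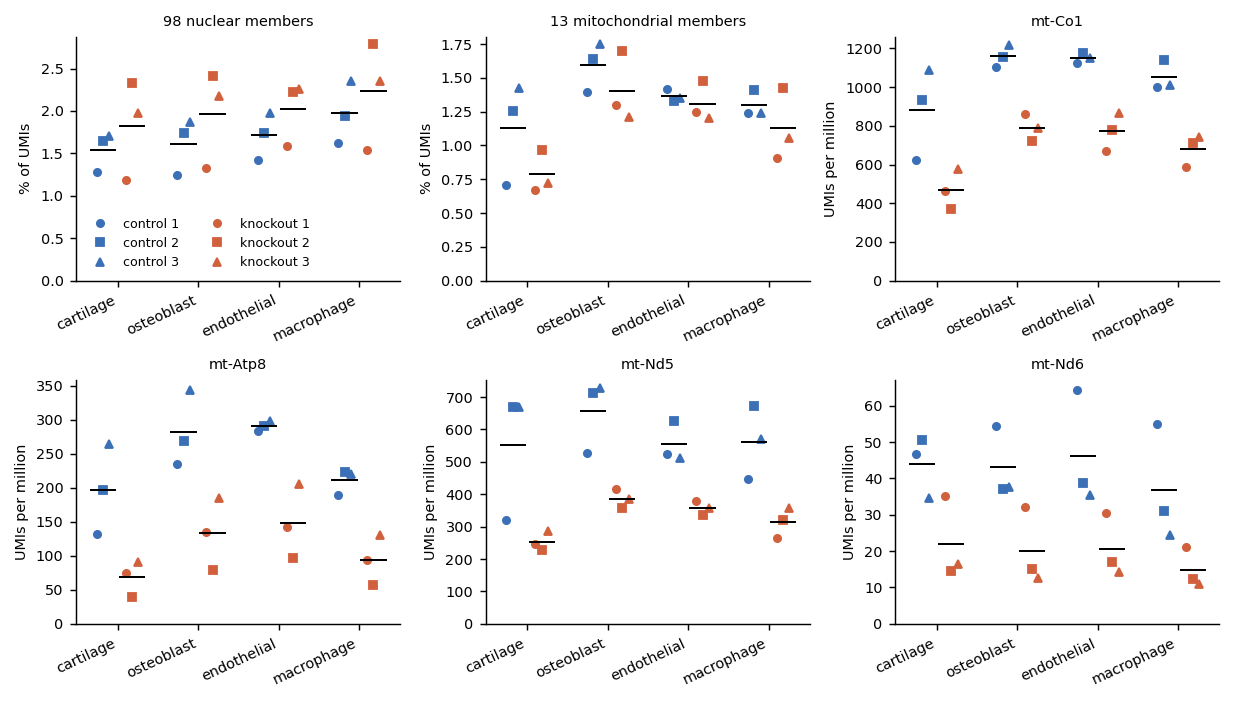
Nuclear and mitochondrial shares (percent of UMIs) and 4 mitochondrial members (CPM) in 4 cell classes, each symbol being 1 library (blue control, orange knockout; circle, square and triangle for replicates 1, 2 and 3) and each bar a group mean. The groups overlap on both shares in all 4 classes, while mt-Co1 in endothelial-like cells sits at 1125 to 1175 in controls and 671 to 866 in knockouts.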

How the data were processed

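Fracture callus was profiled by 10x 3′ sequencing in 3 control and 3 knockout libraries. The authors deposited unnormalised UMI counts per gene and barcode, aligned to GRCm38, with Cell Ranger 6.1.2 or, for control 1 and knockout 1, 6.1.1 per the file headers. Libraries were joined by gene identifier. Left out were 9 symbols that contain -ps and 3 genes that carry a matching name only in the replicate 3 gene list. Ndufb1 of the latter is the same gene as Ndufb1-ps of the former.

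Cells needed 500 UMIs, 200 genes and no more than 20% mitochondrial UMIs, and scrublet removed 0.8% doublets per 1000 cells, 3074 in all. Cells were integrated in Seurat 5.3.0 (2000 variable genes, 30 components, 20 neighbours, resolution 0.8), and clusters were named from at least 3 markers. Counts were summed by class and library with at least 10 cells. edgeR 4.0.16 (TMM, filterByExpr, quasi-likelihood test, Benjamini-Hochberg adjustment) was run on all genes, with the library as a block between classes. It was tested on simulated data. Named were the 13 mitochondrial members, isoform groups, complex II and c subunit genes, and in each comparison up to 5 members a direction with the largest change past an adjusted p of 0.05 and the same direction in every library. Ndufs6 was chosen outside this rule. Shares were compared with exact 2-sided permutation tests. Library depth was 57626530 to 103784364 UMIs, and errors are the spread between libraries. Alternatives changed the cell filters, clustering, class names, scaling, low-count filter, tool (DESeq2 1.42.0) and libraries, and those added after the data were seen are the cluster namings and replicate 1 left out of both groups. The members and lists were chosen with earlier results of these data known.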

Additional observations from a re-analysis of the deposited data

Results flagged for a closer look

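A library was singled out when its gap to the nearest of the 6 libraries exceeded Dixon's 95% critical share of the whole range. This held for 18 of the 398 groups of 6 libraries examined, and chance gives about 1 in 20. Knockout 1 accounted for 7, knockout 2 and knockout 3 for 5 each and control 2 for 1. All values are in CPM on the scales of the report.

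In the chondrocyte-like cells of knockout 2, the 24 cells with few cartilage markers, 4 members stood away from the other libraries: Ndufa4l2 was low at 9.38, and Cox4i1 at 1063, Atp5g1 at 593 and Sdhc at 86.3 stood apart as well. Sdhc was at 129.9 in the macrophage-like cells of knockout 2. In osteoblast-like cells too, Cox4i1 at 1041, Atp5g1 at 471 and Sdhc at 71.1 were highest in knockout 2. In macrophage-like cells Atp5g1 was highest in control 3, at 459. Over all cells the 3 genes were highest in knockout 2, at 1382, 533 and 112, but these levels also depend on the mix of classes. Ndufa4l2 was lowest in knockout 2 in HTC-like and endothelial-like cells as well, but highest there in pericyte-like cells. These values are thus not traits of the 24 cells alone.

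In knockout 1, mt-Atp6 was at 139, mt-Co3 at 51.1 and mt-Co2 at 26.9 in neutrophil-like cells, mt-Co2 at 61.9 in monocyte-like cells and mt-Co3 at 183 in pericyte-like cells. These are the mitochondrial genes with near-complete nuclear copies. In the same library the assembly factors Ndufaf4 in osteoclast-like and Ndufaf7 in monocyte-like cells were at 72.7 and 14.5.

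In knockout 3, Cox4i2 was at 22.0 in monocyte-like and 25.4 in neutrophil-like cells and Ndufa4l2 at 22.5 in macrophage-like cells. Cox4i2 was also highest in knockout 3 in endothelial-like (21.7), macrophage-like (19.6) and dendritic-like cells (21.4), so it is not a trait of the flagged classes alone. Its level over all cells was highest there too (160), but that also depends on the mix of classes. In the same library Uqcrc2 was at 133 in pericyte-like and mt-Nd1 at 1535 in osteoblast-like cells. In control 2, Sdhd was at 106 in the 12 HTC-like cells.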

How the results depend on the processing

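Of 152 alternative counts of called members 139 were within 1.5 times of those given or stayed at 0, 3 were higher and 10 lower, and of 148 alternative genotype differences in shares 147 kept their sign. Of 176 alternatives for shares between classes, 104 kept sign and side of the threshold and 69 kept the sign but not the threshold. Most of these have fewer than 6 libraries and cannot pass, with 3 libraries the smallest exact p being 0.25. In the control or the knockout libraries alone the nuclear and mitochondrial differences were 3.18 or 2.96 and 1.62 or 1.15 for osteoclast-like, −0.991 or −1.07 and −0.497 or −0.446 for neutrophil-like and 0.503 or 0.510 and 0.257 or 0.243 for pericyte-like cells, and the mitochondrial ones −0.442 or −0.334 for HTC-like and 0.436 or 0.532 for osteoblast-like cells. Leaving out 1 library each gave nuclear ranges of 2.92 to 3.32, −1.08 to −0.964, 0.432 to 0.558, 0.0531 to 0.2005 and 0.0771 to 0.132 and mitochondrial ranges of 1.28 to 1.47, −0.502 to −0.444, 0.217 to 0.293, −0.414 to −0.346 and 0.453 to 0.522, in the order osteoclast-, neutrophil-, pericyte-, HTC- and osteoblast-like. Member counts ranged from 97 to 98, 46 to 56, 60 to 71, 12 to 32 and 19 to 45.

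The HTC-like nuclear difference turned to −0.0553 with the Chil1-led cluster and the osteoblast-like one to −0.00259 with clusters of few UMIs counted as chondrocyte-like, and the latter passed at resolution 1.2 (0.281). The mitochondrial difference lost its call without integration for HTC-like (−0.145) and osteoblast-like cells (0.347), with the Chil1-led cluster for HTC-like cells (−0.0863), at resolution 1.2 for osteoblast-like cells (0.389) and as a median over cells for pericyte-like cells (0.304). HTC-like member calls fell to 12 without mitochondrial and rRNA-overlapping genes, by fewer genes tested, and to 15 without integration, and osteoblast-like ones to 21 without integration, 21 at resolution 1.2 and 20 with the clusters of few UMIs. Otherwise the cause was not tested.

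Between groups, dropping the filter on low counts called 1 member each in cartilage-, endothelial- and macrophage-like cells, with the share of all genes called not given here. Leaving out 1 library moved the mitochondrial difference from −0.554 to −0.196, −0.340 to −0.0933, −0.143 to −0.00304 and −0.314 to −0.0546 and the nuclear one from 0.0356 to 0.605, 0.133 to 0.675, 0.162 to 0.529 and −0.0256 to 0.599 in cartilage-, osteoblast-, endothelial- and macrophage-like cells, the last turning sign without knockout 2 (−0.0256). The cartilage-like nuclear difference of 0.0356 is also the one without knockout 2. Member calls stayed at 0. The replicate numbers were not taken to pair the libraries, since no class had all 3 correlations of same-numbered deviations over 0.1: for replicates 1, 2 and 3 they were 0.31, −0.08 and 0.03 in cartilage-like, 0.48, 0.16 and 0.088 in osteoblast-like, 0.34, −0.057 and 0.12 in endothelial-like and 0.027, −0.11 and −0.056 in macrophage-like cells. They were highest for replicate 1 in each class. With the number as a replicate block 0 members were called in all 4 classes, and the share differences were 0.285, −0.344, 0.353, −0.191, 0.309, −0.0573, 0.256 and −0.165.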

Other observations

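In most classes, cells of a library with more UMIs had a lower mitochondrial share. From the third of cells with the fewest UMIs to the third with the most, it went from 3.13 to 1.196% in osteoblast-like, 2.03 to 1.18% in endothelial-like, 1.86 to 1.11% in macrophage-like and 2.27 to 1.45% in pericyte-like cells, lower in 6 of 6 libraries in each, and from 4.44 to 2.40% in osteoclast-like cells, lower in 5 of 6. In chondrocyte-like cells it went from 1.57 to 0.861%, lower in 5 of 5. It did not run 1 way in neutrophil-like cells (0.580 to 0.428%, lower in 3 of 6) or HTC-like cells (0.489 to 0.440%, lower in 2 of 3). The nuclear share ran the other way in 6 of 6 libraries in osteoclast-like (4.07 to 5.47%), macrophage-like (1.74 to 2.25%) and osteoblast-like cells (1.33 to 1.87%). It did so in 5 of 5 in chondrocyte-like (1.25 to 1.63%) and monocyte-like cells (1.90 to 2.24%). It was higher in 5 of 6 libraries in pericyte-like, 4 of 6 in endothelial-like, 2 of 6 in neutrophil-like and 1 of 3 in HTC-like cells. These are descriptions over cells and were not tested.

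Genes overlapping ribosomal RNA also differed between classes. Mir6236 and Lars2, which encodes the mitochondrial leucyl-tRNA synthetase, had log2 fold changes of −0.91 and −0.54 in osteoclast-like, 0.90 and 0.75 in neutrophil-like and 0.67 and 0.75 in osteoblast-like cells in the comparisons of the report, each past an edgeR adjusted p of 0.05. Neutrophil markers were found at 73.6 to 825 CPM in chondrocyte-like cells, which should lack them.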
